A study of Drosophila melanogaster with 2 samples.

Results

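The genes described here encode the proteins of the fly mitochondrial ribosome. They were picked by name, as the protein-coding genes whose symbol begins with mRpL or mRpS followed by a digit. That naming rule uses no measured value, but the gene family was chosen with earlier results of these data known. There were 73 of them among the 13945 protein-coding genes on the chromosome arms of the dm6 assembly, 47 named for the large subunit (mRpL) and 26 for the small subunit (mRpS). By arm, 21 lay on 3R, 17 on 3L, 12 on 2L, 12 on 2R and 11 on X.

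The mitochondrial ribosome translates the few proteins that mitochondrial DNA itself encodes, all of them parts of the respiratory chain and the ATP synthase in animals. All of its own protein subunits are encoded in the nucleus, so each is made in the cytosol and imported. Some of these proteins are counterparts of bacterial ribosomal proteins and keep their numbers, whereas others were added in the mitochondrial line. Bigmax is the fly counterpart of the mammalian factor Mlx. It pairs with Mondo, a sugar-responsive transcription factor, and the pair binds the E-box CACGTG.

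The study measured Bigmax binding by chromatin immunoprecipitation and sequencing (ChIP-seq) in whole Drosophila melanogaster embryos aged 0 to 24 h, of mixed sex, from a transgenic line that stably expresses Bigmax with GFP at its C-terminus. There were 2 libraries, labelled as biological replicates 3 and 4, in 1 group. Both libraries carry the same fusion, and the labels do not name the promoter that drives it. The antibody label of both libraries names Bigmax while their description text names an input control; the file notes give the lists as peak calls against a separate control alignment, and on that basis they were read as immunoprecipitation peaks. Whole embryos of this age range mix all embryonic tissues and stages, so a peak cannot be placed in a cell type.

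Binding was read from the authors' peak lists, which give each peak a summit, its highest point, and a signal value in units set by the calling program. The relaxed lists of replicate 3, replicate 4 and the pooled replicates each hold 30000 peaks and are labelled as holding peaks and background. The reproducible list, thresholded by the irreproducible discovery rate (IDR), holds 1949 peaks, which are the strongest pooled peaks and have a signal of at least 111.0. A gene was given the highest summit within 500 bp of any start of its protein-coding transcripts. Signals were compared within a list, and the replicates by rank, with rank 1 the strongest peak. The lists hold no read counts, and sequencing depth is unknown. With 1 group and 2 libraries there is no contrast to test, so counts and medians of the genes are set beside the same over all protein-coding genes, without p-values.

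Bigmax-GFP had a reproducible promoter peak at 20 of the 73 mitochondrial ribosomal protein genes, or 27.4% (95% Wilson interval 18.5 to 38.6%), beside 11.2% of all protein-coding genes. A relaxed pooled peak was present at 61 of 73, or 83.6%, beside 56.7% of all genes. In replicate 3, 60 of 73 genes had a summit in the window, beside 54.7% of all genes, and in replicate 4 it was 62 of 73, beside 55.1%. The median of the highest pooled signal, with genes lacking a summit placed lowest, was 64.06 for the mitochondrial ribosomal protein genes and 30.73 for all genes. When each summit counted only for the gene with the nearest start, the median of the mitochondrial ribosomal protein genes was 35.07 and 57.5% of them had a relaxed peak, beside 49.0% of all genes, whose median then fell below the lowest listed signal of 24.05. Most of these genes therefore had some listed peak, and for most of them it was below the reproducible level. The relaxed lists include background, so a listed peak alone is not evidence of binding. Deposited −log10 q-values went down to 0.262 in the pooled list, and among these genes to 0.311 at mRpS22. The Wilson intervals cover the counting of genes only.

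The 2 subunits had similar shares. Reproducible peaks lay at 12 of 47 large subunit genes, 25.5% (15.3 to 39.5%), and at 8 of 26 small subunit genes, 30.8% (16.5 to 50%). Relaxed pooled peaks lay at 40 of 47 large subunit genes, 85.1%, and at 21 of 26 small subunit genes, 80.8%. The median highest pooled signal was 64.06 in the large and 58.28 in the small subunit. The intervals of the shares overlap over most of their length. Genes of a list are not replicates, so the subunits are only described and a difference between them was not tested. In human mitochondrial ribosome structures the counterparts of mRpS30 and mRpS18A sit in the large subunit. With these genes moved, the reproducible counts were 13 of 49 in the large subunit (26.5%) and 7 of 24 in the small subunit (29.2%), and the median pooled signals were 69.28 in the large subunit and 44.17 in the small subunit.

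**Figure D1:**
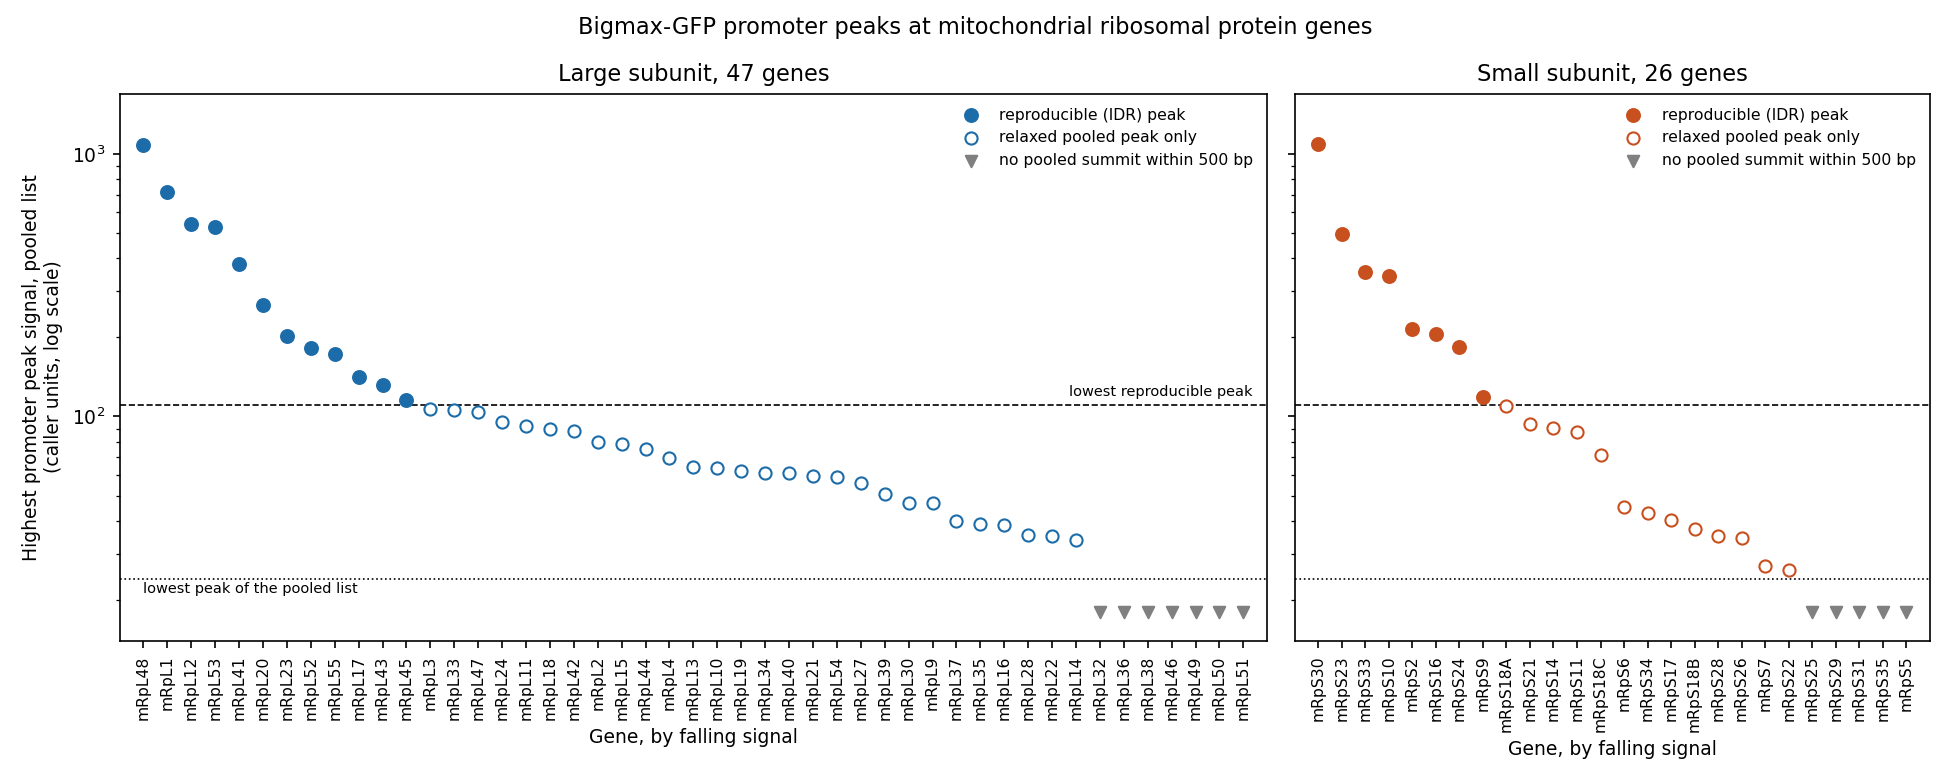
Highest promoter peak signal in the pooled list (vertical axis, caller units, log scale) for each of the 73 genes, ordered by falling signal within the large (left) and small (right) subunit. Filled points have a reproducible peak, open points only a relaxed pooled peak, and grey triangles mark genes with no pooled summit within 500 bp, drawn below the scale of the list. Each subunit has 1 gene above all others, at 1078 (mRpL48) and 1093 (mRpS30), and genes at the floor, and the 20 filled points lie above the dashed line at 111.0.

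Genes numbered as counterparts of bacterial proteins (up to L36 and S21) had a reproducible peak in 9 of 42 cases, 21.4%, and those with higher, mitochondria-specific numbers in 11 of 31, 35.5%. Relaxed pooled peaks ran the other way, with 39 of 42 numbered as bacterial counterparts and 22 of 31 with higher numbers. The median pooled signal was 70.23 for the bacterial counterparts and 58.90 for the others. The Wilson intervals of the reproducible shares were 11.7 to 35.9% for the bacterial counterparts and 21.1 to 53.1% for the others, and they overlapped. A difference between these groups was not tested. The numbering is only a guide, since mRpS24, numbered above S21, is the counterpart of bacterial S3 in human structures.

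The strongest peaks fell at 1 gene of each named class. At mRpS30, on X, the signal was 1093 in the pooled list (rank 71), 623 in replicate 3 (rank 74) and 461 in replicate 4 (rank 74). At mRpL48, on 2L, it was 1078 in the pooled list (rank 73), 644 in replicate 3 (rank 72) and 445 in replicate 4 (rank 79). Their summits lay 46 and 21 bp inside the genes, in the annotated 5′ untranslated region of each. The peaks span X 15785874 to 15786359 and 2L 1710315 to 1710714.

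Among large subunit genes the next were mRpL1 and mRpL12. mRpL1 is the counterpart of bacterial L1, which forms the mobile stalk where spent tRNA leaves the ribosome. Its signal was 714 in the pooled list, 427 in replicate 3 (rank 122) and 284 in replicate 4 (rank 144). mRpL12 is the counterpart of L7/L12, part of the stalk that recruits translation factors, and the fly gene is known for a role in growth driven by Cyclin D and Cdk4. Its signal was 540.2 in the pooled list, 331 in replicate 3 (rank 172) and 211 in replicate 4 (rank 218). The counterparts of the proteins at the base of that stalk, mRpL10 with a pooled signal of 63.9 and mRpL11 with 91.8, had no reproducible peak. The peaks of mRpL1 and mRpL12 lie at 3R 8301235 to 8301559, with the summit 42 bp before the start of mRpL1, and at 3L 8956675 to 8956984, with the summit 42 bp inside mRpL12. Both mRpL1 and mRpL12 were higher in rank in replicate 3 than in replicate 4.

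The other reproducible large subunit genes ranged widely. mRpL53 had a pooled signal of 525, with rank 159 in replicate 3 and rank 262 in replicate 4, and mRpL41 had 381, with rank 390 in replicate 3 and rank 232 in replicate 4. mRpL20, counterpart of a protein needed early in bacterial subunit assembly, had 265, with rank 457 in replicate 3 and rank 386 in replicate 4. Of the counterparts of proteins around the exit of the bacterial peptide tunnel, mRpL23 had 203 (replicate 3 rank 833, replicate 4 rank 504) and mRpL17 had 141 (replicate 3 rank 1943, replicate 4 rank 1225). Others of that group had no reproducible peak, with 95.4 for mRpL24, 35.1 for mRpL22 and no pooled summit at mRpL32. mRpL45, whose human counterpart contacts the inner membrane, stood lowest of the 20 with 116, at rank 2323 in replicate 3 and 2318 in replicate 4. Between these, mRpL52 had 183 (replicate 3 rank 1175, replicate 4 rank 575), mRpL55 had 173 (replicate 3 rank 1162, replicate 4 rank 721) and mRpL43 had 131 (replicate 3 rank 2109, replicate 4 rank 1173). Of the 20 genes, 5 ranked higher in replicate 3 than in replicate 4.

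On the small subunit, mRpS23 had a pooled signal of 494 (replicate 3 rank 277, replicate 4 rank 163) and mRpS33 had 356 (replicate 3 rank 282, replicate 4 rank 382). mRpS10, counterpart of bacterial S10, had 343, with rank 385 in replicate 3 and rank 293 in replicate 4. mRpS2 had 216 (replicate 3 rank 692, replicate 4 rank 586), mRpS16 had 206 (replicate 3 rank 735, replicate 4 rank 599) and mRpS24 had 184 (replicate 3 rank 1020, replicate 4 rank 731). mRpS9, counterpart of a protein that contacts tRNA in the bacterial small subunit, was lowest with 119, at rank 2522 in replicate 3 and 1617 in replicate 4. All 8 small subunit genes except mRpS33 and mRpS30 ranked higher in replicate 4 than in replicate 3, mRpS30 having rank 74 in both.

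Just below the reproducible list stood 8 genes, with pooled signals of 109.7 for mRpS18A, 107 for mRpL3, 106 for mRpL33, 104 for mRpL47, 95.4 for mRpL24, 93.8 for mRpS21, 91.8 for mRpL11 and 90.7 for mRpS14. Several of them were unequal between the replicates. mRpL3, counterpart of a core protein near the peptidyl transferase centre, was at rank 1231 in replicate 3 and rank 9635 in replicate 4. mRpL33 was at rank 1078 in replicate 3 and rank 12223 in replicate 4. In the other direction, mRpL24 was at rank 7663 in replicate 3 and 1436 in replicate 4, and mRpS14 was at 6721 in replicate 3 and 1353 in replicate 4. The remaining 4 were closer: mRpS18A at rank 1376 in replicate 3 and 2154 in replicate 4, mRpL47 at 1751 in replicate 3 and 3466 in replicate 4, mRpS21 at 3929 in replicate 3 and 3203 in replicate 4, and mRpL11 at 3499 in replicate 3 and 2465 in replicate 4.

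No pooled summit lay within the window of 12 genes. Of these, 5 had none in any list: mRpL36, mRpL38, mRpL49, mRpS31 and mRpS35. The nearest pooled summit to a start of mRpS31 was 516 bp away, with a signal of 89.2, so its absence rests on the window. For the other 4 the nearest pooled summit was 915 to 1729 bp away. The other 7 had a listed summit in at least 1 replicate: mRpL32, mRpL46, mRpL50, mRpL51, mRpS5, mRpS25 and mRpS29, the last the counterpart of mammalian DAP3. Since each relaxed list stops at 30000 peaks, a gene missing from a list can still have signal below its last peak.

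Replicates 3 and 4 both listed 54 of the 73 genes, 6 were in replicate 3 only, 8 in replicate 4 only and 5 in neither. Among the 20 genes with a reproducible peak, all were in both lists and the Spearman correlation of their signals was 0.952, beside 0.696 over 1548 genes with a reproducible peak. Among the other 34 genes in both lists it was 0.176, beside 0.394 over 4778 genes. These correlations describe genes of the same 2 libraries. The reproducible list was thresholded on agreement between these 2 replicates, so agreement among its genes, in rank or position, is partly fixed by that choice. Of the 20 genes, 17 were among the 1949 strongest peaks of both replicates, and the exceptions were mRpL43, mRpS9 and mRpL45. Of the genes without a reproducible peak, 4 were that strong in replicate 3 and 2 in replicate 4, and 0 in both.

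**Figure D2:**
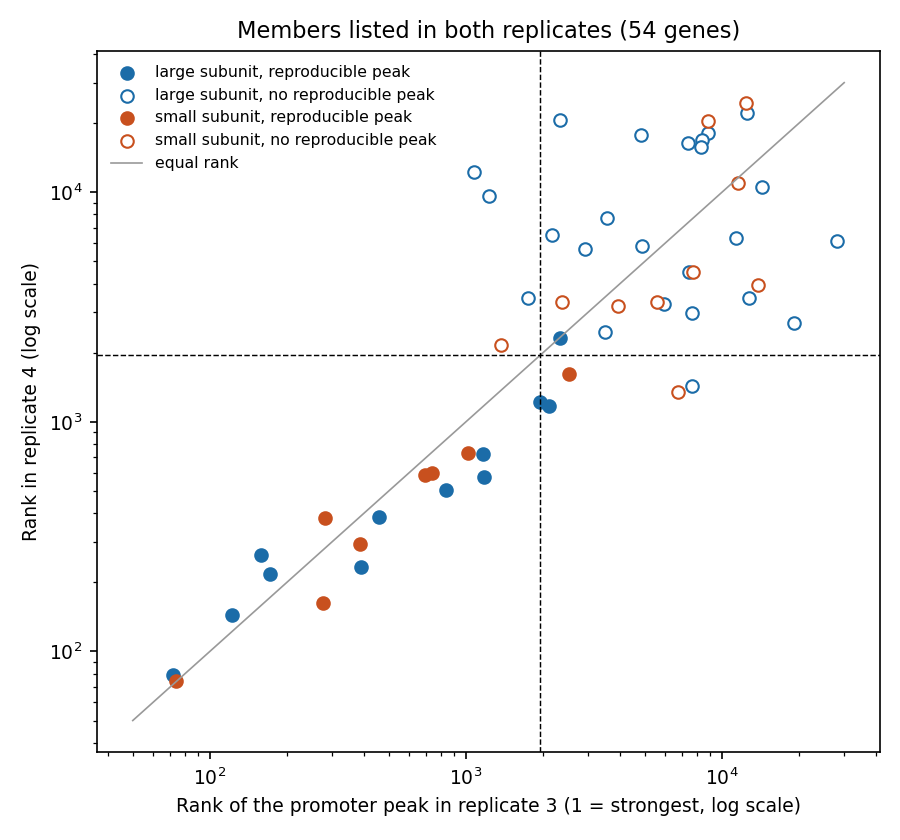
Rank of the promoter peak in replicate 3 (horizontal axis) and in replicate 4 (vertical axis), both on log scales with rank 1 strongest, for the 54 genes listed in both replicates, coloured by subunit. The 20 filled points (reproducible peak) run along the line of equal rank, while open points spread away from it; dashed lines mark rank 1949, the length of the reproducible list.

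Summit positions repeated too. The summits of replicates 3 and 4 lay within 50 bp of each other at 17 of the 20 genes with a reproducible peak, 85.0%, beside 70.3% of all genes with one. Among all 54 genes in both lists it was 33, 61.1%, beside 44.0% of all genes. A gene with several starts can have its highest summit at different starts in the 2 replicates. The all-gene shares here, and the correlations above, therefore include such unlike promoters. The largest distance was 102 bp among the 20 genes, beside 74003 bp over all genes with a reproducible peak. In the reproducible list, 12 of the 20 summits lay within 100 bp of the own start (60.0%, beside 53.4% of all genes with a reproducible peak). The summit lay upstream of the start at 11 of 20 (55.0%, beside 68.2%) and inside the gene at 9. The summits of mRpL12, mRpL20, mRpL23, mRpL45, mRpL48, mRpS30 and mRpS33 fell in their own 5′ untranslated regions, that of mRpS24 in its coding exon and that of mRpS9 in an intron. Of the 11 upstream summits, that of mRpL52 fell in the 5′ untranslated region of CG12107. Those of mRpL53 and mRpL55 fell in introns of AGO1 and ATPsynD, and the rest lay outside protein-coding genes.

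Neighbouring starts within 500 bp were the rule. Another protein-coding gene started within 500 bp of 54 of the 73 genes, 74.0%, beside 30.9% of all genes, and at 53 of them, 72.6% of the 73, the neighbour was divergent, that is, read in the opposite direction, beside 27.4% of all genes. The spacing could be very short: 20 bp between mRpL18 and Taz, 21 bp between mRpS14 and Naa15-16, 24 bp between mRpL23 and CG9004 and 41 bp between mRpL48 and CG17660. It could also be near the limit: 499 bp between mRpL22 and if, 492 bp between mRpS23 and CenG1A and 464 bp between mRpS30 and Paf-AHalpha. A start within 500 bp therefore does not by itself show a shared promoter. Each subunit was arranged alike, with a neighbouring start at 35 of 47 large subunit genes (74.5%) and 19 of 26 small subunit genes (73.1%). Genes with a neighbouring start had a reproducible peak in 15 of 54 cases, 27.8%, beside 19.8% of all genes with such a neighbour. Those without one had a reproducible peak in 5 of 19 cases, 26.3%, beside 7.30% of all genes without one. The observed share thus differed little between the mitochondrial ribosomal protein genes with and without a neighbour, although over all genes it was higher with a neighbour. The Wilson intervals were wide, 17.6 to 40.9% with a neighbour and 11.8 to 48.8% without one. These counts therefore cannot show whether the difference seen over all genes is absent here.

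At 13 of the 20 reproducible summits, 65%, a start of another gene lay within 500 bp of the summit, beside 48.9% of all genes with a reproducible peak. At 8 of the 20, 40.0%, that other start was the nearer, beside 23.4%. These 8 were mRpS23 (95 bp to CenG1A, which encodes an Arf GTPase activator, and 397 bp to mRpS23), mRpL17 (85 bp to Tudor-SN, a nuclease of RNA metabolism, and 314 bp to mRpL17), mRpL43 (79 bp to CG30183, 202 bp to mRpL43), mRpL55 (244 bp to ATPsynD, an ATP synthase subunit gene, 339 bp to mRpL55), mRpS10 (111 bp to Art3, an arginine methyltransferase gene, 146 bp to mRpS10), mRpL53 (72 bp to AGO1, the microRNA Argonaute gene, 98 bp to mRpL53), mRpS16 (16 bp to cg, a zinc-finger gene, 81 bp to mRpS16) and mRpL52 (21 bp to CG12107, 71 bp to mRpL52). The annotated start of mRpL53 is also a start of CG33155 on the same strand. At the other 5 shared summits the mitochondrial ribosomal protein gene was nearer: mRpL1 (neighbour CG9626), mRpL20 (Icmt, a carboxyl methyltransferase gene), mRpL23 (CG9004), mRpL48 (CG17660) and mRpS2 (Mon1, a gene of endosome maturation). A peak between or beside 2 divergent starts cannot be given to either gene from these lists. When each summit counted only for the gene with the nearest start, 12 of 73 genes kept a reproducible peak, 16.4%, beside 8.68% of all genes. No reproducible summit was shared by 2 mitochondrial ribosomal protein genes.

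**Figure D3:**
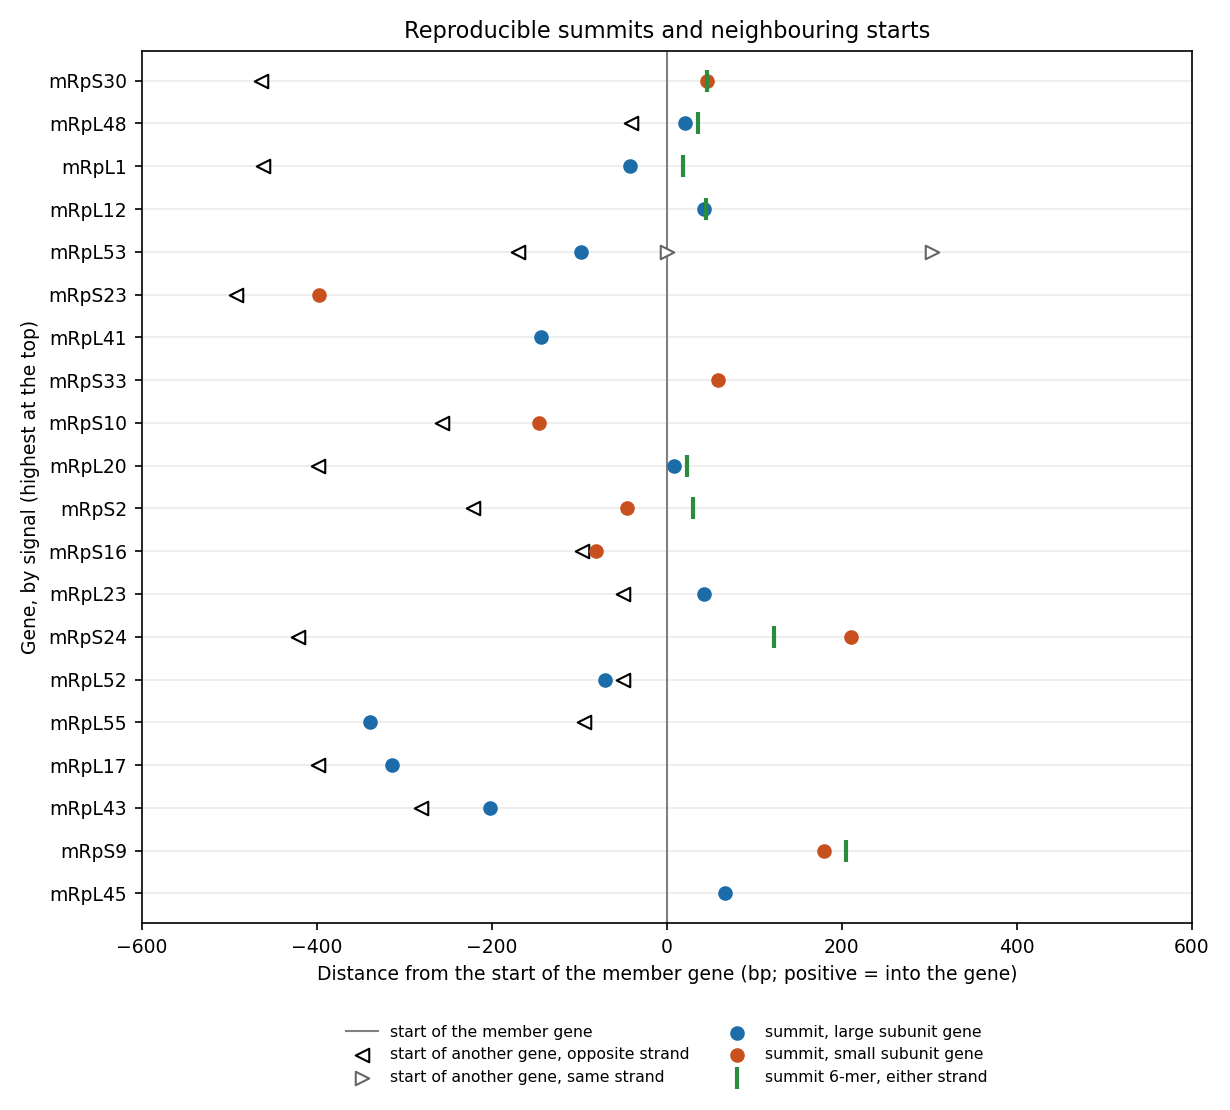
Position of the reproducible summit (filled circle, coloured by subunit) relative to the start of each of the 20 genes, in bp along the gene's own direction. Open triangles are starts of other protein-coding genes, green ticks are AGGTTA hexamers (both strands searched) no farther than 100 bp from it. Triangles on the left, pointing left, show that the neighbouring genes are divergent; green ticks at 6 genes fall 18.5 to 46.5 bp inside the gene.

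The sequences around these summits are shown because several carry the hexamer AGGTTA, searched on both strands, which an earlier screen of these same peaks had picked out, so its presence here is a description and not independent evidence. Within 100 bp of the summit it was found at 8 of the 20 genes, 40.0%, beside 23.3% of 1171 reproducible promoter peaks. Within 50 bp it was found at 5 (mRpL12, mRpL20, mRpL48, mRpS9 and mRpS30), 25%, beside 16.1%. Below are 30 bases around it, 5′ to 3′ on the strand that reads AGGTTA, with the hexamer in capitals, from the Release 6 (dm6) genome.
mRpS30, chrX:15786079-15786108, minus strand: ttgacaataactAGGTTAtgtcattgctgc
mRpL48, chr2L:1710483-1710512, minus strand: attctccaattcAGGTTAtatcaccagctg
mRpL1, chr3R:8301444-8301473, plus strand: ttctggccggcgAGGTTAtgcaaagcgaga
mRpL12, chr3L:8956821-8956850, minus strand: ggccgcagcagcAGGTTAtgtgagcagttt
mRpL20, chr3L:13017829-13017858, minus strand: ttagcgccgtgcAGGTTAtgtaaaataaca
mRpS2, chr2L:4850374-4850403, minus strand: gaagaagaacatAGGTTAtgaaaacacgag
mRpS9, chr3R:7902448-7902477, plus strand: ccgctgcctgaaAGGTTAtgcaaacgtttg
mRpS24, chr3R:24163408-24163437, plus strand: ctgcaatagattAGGTTAttttaatatata

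The centre of the hexamer was 0.5 bp from the summit at mRpS30, 2.5 bp at mRpL12, 14.5 bp at mRpL48 and 15.5 bp at mRpL20. At mRpL1, mRpL12, mRpL20, mRpL48, mRpS2 and mRpS30 it lay 18.5 to 46.5 bp inside the gene. It ran along the gene at mRpL1, mRpL20 and mRpS2 and against it at the other 5. In 6 of the 8 sites the next bases were TG, so that the site read AGGTTATG, or 75.0%, beside 22.9% of 293 AGGTTA sites at reproducible promoter peaks; this was noticed on reading the 8 sites. The 5 genes with AGGTTA within 50 bp of the summit had pooled signals of 119 to 1093 with a median of 540.2, and the 15 without it 116 to 714 with a median of 206.3. The ranges overlap, with mRpL1, mRpL53 and mRpS23 among the high genes without it.

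Seen from the promoters, defined as 250 bases before to 50 after the first start, 9 of 73 genes held AGGTTA on either strand, 12.3%, beside 6.88% of all promoters. Of these 9, 6 had a reproducible peak (66.7%), against 14 of the 64 without it (21.9%). Over all genes the shares were 18.2% with it and 10.6% without it. Because the hexamer was picked out from these same peaks, these shares too are a description and not independent evidence. The contrast over all genes was not particular to AGGTTA. For CACGTG the all-gene shares were 17.6% with it and 10.9% without it, and other motifs are given below. mRpL15, mRpL49 and mRpS31 held AGGTTA without a reproducible peak, mRpL49 and mRpS31 without a listed peak of any kind.

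At mRpL12 the AGGTTA site had a DRE, the palindrome TATCGATA bound by the factor DREF, close by, and this gene and mRpL20 were the only ones of the 20 with a DRE within 50 bp of the summit (10%, beside 5.21% of reproducible promoter peaks). The stretch of mRpL12 is shown on its plus strand with both motifs in capitals, the hexamer reading TAACCT.
mRpL12, chr3L:8956813-8956839, plus strand: tTATCGATAaactgctcacaTAACCTg

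The canonical E-box CACGTG was rare at reproducible peaks of all genes and of these. It was found within 50 bp at 0 of the 20 reproducible summits, beside 2.73% of reproducible promoter peaks, and within 100 bp at 1, mRpL23, 5% beside 5.81%. Both counts are near the share of all promoter peaks. Among the 41 genes with only a relaxed pooled peak, 4 had it within 50 bp of the summit (mRpL16, mRpL27, mRpS14 and mRpS17), 9.76%, beside 1.70% of 5243 such summits of all genes. The summit was nearer another start at mRpS17 (19 bp to Nop60B, 455 bp to mRpS17), mRpL27 (31 bp to CG15435, 122 bp to mRpL27) and mRpS14 (16 bp to Naa15-16, 37 bp to mRpS14). At mRpL16 the own start was nearer. The deposited −log10 q-value was only 0.706 at mRpL16, which replicate 4 did not list, and 0.770 at mRpS17. In promoters CACGTG was found at 5 of 73 genes, 6.85%, beside 4.20% of all genes. Of these 5 genes, 1 had a reproducible peak, against 19 of the 68 without it (27.9%). The counts are small, and 3 of the sites are shown with the E-box in capitals.
mRpS14, chrX:19480241-19480270, minus strand: cgcacactggcaCACGTGttcacgcgcttc
mRpL16, chrX:1890128-1890157, plus strand: attattgtgttcCACGTGcaatatggcaca
mRpL23, chr3L:2373686-2373715, minus strand: tgttggacaaccCACGTGcttttacacggg

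A different E-box, CAGCTG, known from fly core promoters, was the most frequent of the 6 motifs searched on both strands. It was present in 40 of 73 promoters, 54.8%, beside 17.7% of all promoters, with 27 of 47 in the large subunit (57.4%) and 13 of 26 in the small subunit (50%). Among the mitochondrial ribosomal protein genes the share was 54.7% of the 53 with a divergent neighbour and 55.0% of the 20 without one, and over all genes it was 25.1% with one and 14.9% without one. Its sites sat at the start itself: the median centre was 4.5 bp inside the gene and 80.0% of 45 sites lay within 50 bp of the start, beside 50.8% of 2776 sites over all genes. Cytosolic ribosomal protein genes held it in 9.78% of 92 promoters. At reproducible summits it was present within 50 bp at 3 of 20 (mRpL48, mRpS2 and mRpS33), 15.0%, beside 9.91%. Of the 40 genes with CAGCTG in the promoter, 13 had a reproducible peak (32.5%), against 7 of 33 without it (21.2%), beside 14.7% and 10.4% of all genes with and without it. Sites at 2 of these genes are shown with the motif in capitals.
mRpS33, chr3R:16436566-16436595, minus strand: gcacttggaaatCAGCTGtcgcttgttttt
mRpS2, chr2L:4850413-4850442, minus strand: aacactacccacCAGCTGtttaccaaaatc

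The other motifs gave smaller contrasts in the promoters. TATCGATA was found in 15 of 73, 20.5%, beside 9.36% of all. Among genes with a divergent neighbour it was found in 15.1% of the mitochondrial ribosomal protein genes, beside 17.4% of all such genes, and among those without one in 35.0%, beside 6.32%. GGTCACAC, the core of a core-promoter element known as motif 1, was found in 8 of 73, 11.0%, beside 7.70%. With a divergent neighbour it was 13.2%, beside 14.7% of all such genes, and without one 1 of 20, beside 5.07%, so within each class the share was near that of all genes. Within 50 bp of the summit GGTCACAC was found at 2 of the 20 reproducible summits, 10%, beside 5.12% of reproducible promoter peaks. These were mRpL48 and mRpS30, the 2 with the highest pooled signals, which also held AGGTTA within 50 bp. GAGAG, bound by GAGA factor, was found in 12 of 73, 16.4%, beside 29.7% of all. From 500 before to 100 after the start it was found in 32 of 73, 43.8%, beside 47%, so the difference was smaller in the wider window. Of the 15 genes with TATCGATA in the promoter as first defined, 4 had a reproducible peak (26.7%), against 27.6% without it. For GGTCACAC it was 4 of 8, against 16 of 65 (24.6%), and for GAGAG 4 of 12 (33.3%), against 26.2%. Over all genes the shares with and without the motif were 19.9% and 10.3% for TATCGATA and 21.5% and 10.3% for GGTCACAC. For GAGAG they were 10.5% and 11.4%. Both E-boxes and TATCGATA are palindromes that read alike on each strand, and none of these 6 motifs contains another.

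**Figure D4:**
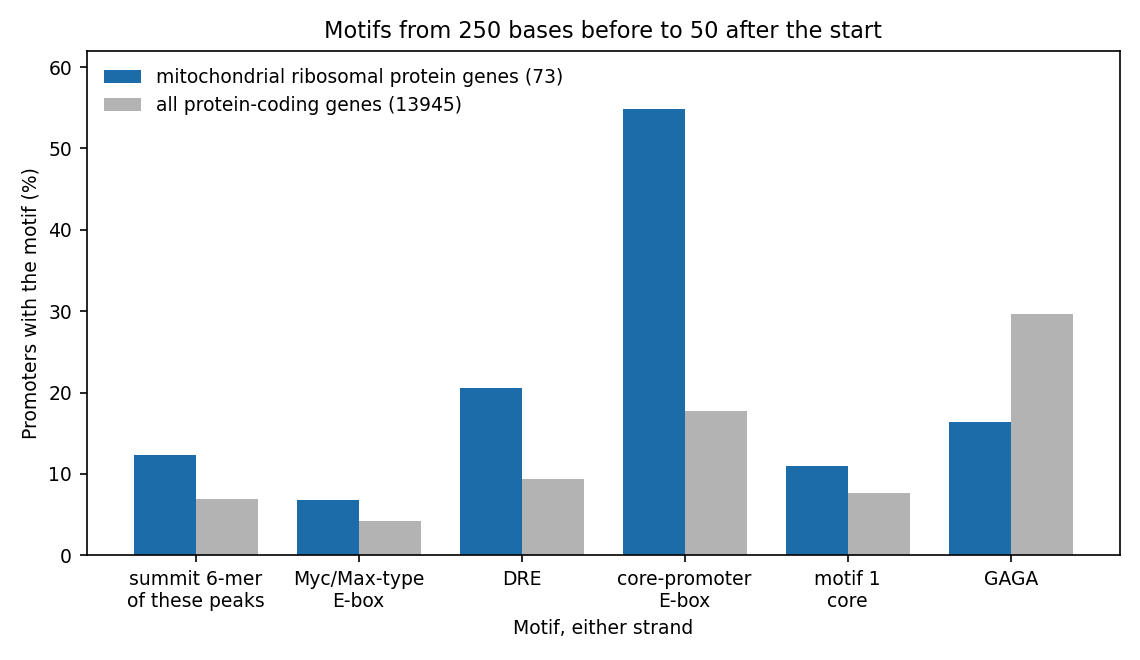
Share of promoters (vertical axis, percent; 250 bases before to 50 after the first start, either strand) that hold each of 6 motifs, for the 73 mitochondrial ribosomal protein genes (blue) and all 13945 protein-coding genes (grey). The core-promoter E-box stands at 54.8% beside 17.7%, while GAGA is the one motif with a lower blue bar (16.4% beside 29.7%).

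Other genes of mitochondrial gene expression, listed by role rather than by measured value, were read the same way. Of 37 matched genes, 10 had a reproducible peak, 27.0% (15.4 to 43.0%), and 29 a relaxed pooled peak, with a median highest pooled signal of 65.43. These values were close to those of the 73 mitochondrial ribosomal protein genes, for which they were 27.4% and 64.06. The 10 were MTPAP, the mitochondrial poly(A) polymerase gene, with a pooled signal of 1767, TFAM, which packages mitochondrial DNA, with 1022, the tRNA synthetase genes TyrRS-m with 689, ArgRS-m with 449.8, ProRS-m with 232 and LeuRS-m with 121, bonsai with 420.4, the initiation factor gene mIF3 with 259, the RNA-binding protein gene bsf with 243 and mtSSB, the single-stranded DNA binding protein gene, with 185. Some of these summits also lay near the start of another gene. The summit at TFAM was 8 bp from CG5412 and 51 bp from TFAM, and that at LeuRS-m 77 bp from Dhc64C and 89 bp from LeuRS-m. When each summit counted only for the gene with the nearest start, 8 of the 37 kept a reproducible peak. Under that rule it was 12 of the 73 mitochondrial ribosomal protein genes (16.4%) and 8.68% of all genes. Another start lay within 500 bp of 19 of the 37 (51.4%), beside 74.0% of the 73. Of the 10, bonsai encodes the mitochondrial S15 counterpart and so a ribosomal protein that the naming rule left out. Another such gene, tko, which encodes the S12 counterpart, had a relaxed peak of 65.4 at rank 5367 in replicate 3 and 9468 in replicate 4. The promoters of these genes held CAGCTG at 20 of 37, 54.1%. Cytosolic ribosomal protein genes stood higher on signal, with reproducible peaks at 69 of 92, 75.0%, and a median of 225.1.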

How the data were processed

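The authors, per the file notes they deposited, aligned reads to dm6, called relaxed peaks for replicate 3, replicate 4 and both pooled against a shared control alignment, and thresholded the pooled calls by IDR. The peak caller is not given in the sources used here. The measured columns are the authors' deposited signal per peak, in caller units, and their deposited −log10 q-value, which was 3.64 throughout the reproducible list and was not used for ranking. Whether the replicates came from separate embryo collections is stated only by the label of biological replicate.

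Summits were assigned to genes with Ensembl release 115 models (BDGP6.54), within 500 bp of any protein-coding transcript start. Sequence came from the RefSeq Release 6 genome. Counts, medians, Wilson intervals and Spearman correlations were computed in Python 3.11.15 with pandas 2.3.3, numpy 2.4.6 and scipy 1.17.1, and the assignment was tested on simulated peaks. Of 41 names of mitochondrial expression genes, 37 matched the annotation and 4 did not. The genes, lists and motifs were chosen with earlier results of these data known. Genes were named by a rule: every gene with a reproducible peak, the 8 strongest without one, those in no list, and listed mitochondrial expression genes with a reproducible peak. mRpS5, mRpS29, mRpL10, mRpL22 and tko were named after their values were seen, as were the closest neighbours and the remaining genes without a pooled summit. Alternative windows, assignments, peak sets and motif ranges were tried.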

Additional observations from a re-analysis of the deposited data

How the results depend on the processing

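Of 96 alternative values over 13 settings, 79 stayed close and 17 moved. A count was taken as close within 1.5 times the value reported, and the median within 1.38, the SD between the medians of the replicate lists; the relaxed pooled count of 42 with the nearest start only, against 61, passed as close under this margin. When each summit counted only for the nearest start, reproducible peaks lay at 12 genes, 7 large subunit, 5 small subunit and 6 with mitochondria-specific numbers, the shared summits fell to 0 by construction, and the median pooled signal was 35.07. A 250 bp window gave 8 shared summits and a median of 55.66, and a 1000 bp window or any base of the peak gave 69.28. Within 100 bp of the summit AGGTTA was found at 8 genes. Promoters from 500 before to 100 after the start held AGGTTA at 15 genes (20.5%, beside 13.7% of all genes), CACGTG at 10 (13.7%, beside 7.52%), GGTCACAC at 14 (19.2%, beside 9.82%) and GAGAG at 32 (43.8%, beside 47%). With 1 replicate left out, using the other's own list and units, the median was 34.51 to 36.46, and 21 genes were among the strongest 1949 peaks of replicate 4 (28.8%, beside 11.1% of all genes) and 21 among those of replicate 3 (28.8%, beside 11.0%). These counts shared 17 genes. By subunit they held 12 to 13 large and 8 to 9 small subunit genes. No paired analysis was possible because there is 1 group. Depth is unknown, and the fixed length of the relaxed lists limits what an absent peak shows.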

Other observations

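mRpS5, near the centromeric end of 3L, had a summit in both replicate lists and none in the pooled list. Its signal was 59.4 in replicate 3 (rank 2363, summit 91 bp from the start) and 42.6 in replicate 4 (rank 3312, summit 23 bp from the start), while the nearest pooled summit lay 438167 bp away. Of 1744 genes that ranked within 3312 in both replicates, 4 lacked a pooled promoter summit, 0.229%: mRpS5, CG10365, CG11307 and S1P. The cause was not tested.

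By chromosome arm, reproducible peaks lay at 5 of 12 mitochondrial ribosomal protein genes on 2R (41.7%, beside 11.9% of all genes there), 7 of 21 on 3R (33.3%, beside 12.4%), 3 of 12 on 2L (25%, beside 10.8%), 4 of 17 on 3L (23.5%, beside 11.4%) and 1 of 11 on X (9.09%, beside 8.61%). The gene on X was mRpS30, which had the highest signal of all 73 in the pooled list and in replicate 4, while mRpL48 was highest in replicate 3.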
